A study of Mus musculus with 2 samples.

Results

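Proteins that fold wrongly in the endoplasmic reticulum (ER), and shortage of amino acids, both set off stress programmes in which whole groups of genes are switched on together. Here 33 genes of these programmes were followed in mouse prostaspheres, balls of prostate epithelial cells grown in Matrigel, with and without the transcription factor Sox9. The genes were taken by name from a list that was drawn up with earlier results of these data known. Each was read from its brightest probe. Of the 33, 32 were found by name among the 27827 gene names on the array, and all 32 were among the 15122 genes that could be tested. Ppp1r15a was not listed under its present name. A probe listed as Myd116 carries the RefSeq accession of Ppp1r15a, and it is described beside the 32 but is not counted with them.

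Each of 2 arrays set 2 RNAs against each other, Sox9-expressing in red (Cy5) and Sox9-deleted in green (Cy3). In the genotype comparison, wild type prostaspheres given tamoxifen (TAM) were set against ER-Sox9flox/flox prostaspheres given TAM, and in the treatment comparison, ER-Sox9flox/flox prostaspheres given vehicle were set against ER-Sox9flox/flox prostaspheres given TAM. All 4 RNAs came from C57/Bl6J mice, per the labels from urogenital sinus epithelium of embryos at 16 days post conception, and all spheres grew for 6 days in medium with dihydrotestosterone before 6 days of 5 micromolar TAM or vehicle. The Cre recombinase that TAM activates is made from the Rosa26 locus, which is active in most cell types. The labels do not say whether the wild type cells carry it, and in the treatment comparison the RNAs differ in TAM as well as in Sox9. The label of the vehicle RNA also reads Sox9 null, and only its treatment tells it from the deleted RNA. The methods describe the sphere assay for adult prostate tissue. Each comparison is 1 array, both arrays shared 1 slide, and no dyes were swapped. A difference between the dyes and a difference between the groups thus cannot be told apart. Values are log2 ratios of Sox9-expressing over Sox9-deleted RNA, so a value below 0 means more RNA in the Sox9-deleted spheres, and each mean is given with its SD over the 2 arrays (n = 2). Brightness was not scaled between arrays, so it compares the RNAs of 1 array directly and those of different arrays only roughly.

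The unfolded protein response starts from sensors in the ER membrane, which lead to the transcription factors Xbp1, Atf6 and Atf4. Xbp1 and Atf6 act mainly on genes of folding and of degradation of ER proteins. Atf4 is made when the initiation factor eIF2 is phosphorylated, which also happens when amino acids run short, and it acts on genes of amino acid uptake and synthesis and on Ddit3 (CHOP), a factor known for its part in cell death under lasting stress. Ppp1r15a (GADD34) brings a phosphatase to eIF2 and so closes the loop. Much of this regulation is at the level of protein, splicing and phosphorylation, which an array of RNA does not read. In bulk RNA, fewer cells of a type and less RNA per cell cannot be told apart.

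Sox9 itself was higher in the Sox9-expressing RNA on 2 of its 3 probes, with log2 ratios of 2.69 and 2.37 (genotype, treatment) on one and 1.17 and 1.27 on the other. The third probe read the opposite way on both arrays, -1.22 in the treatment comparison and -1.11 ± 0.16 as a mean (SD, n = 2), and which of the probes lie in the deleted part is not given in the sources used here. The 8 prostate epithelial markers reported here, Krt5, Krt14 and Trp63 among them, were well above background in every RNA. With Sox9, 5 of them read higher on both arrays and 2 lower on both, where 33.8% and 33.7% of all tested genes did. The last, Krt8, was split at 0.01 and -0.74, and Cdh1 was lower on both at -0.31 and -0.32. Krt5 stood at 2.13 and 1.91, Krt14 at 2.07 and 1.86 and Trp63 at 1.65 and 1.55, whereas Krt18 stood at -0.28 and -1.015. All 7 fibroblast markers were also well above background in every RNA, and their summed brightness was 28790 in wild type against 51670 in deleted spheres in the genotype comparison, and 76180 in vehicle against 46160 in deleted spheres in the treatment comparison. The median fibroblast marker stood at -0.80 on one array and 0.85 on the other. Of the 7, 6 were split between the arrays, and Dcn was lower on both, at -0.77 and -0.14. The summed brightness of the skeletal muscle markers went the same way, 1024 against 2099 and 4358 against 1354. Only 2 of these 5 were well above background in wild type, and 4 in the deleted RNA of the treatment comparison. All 5 were in the vehicle RNA and in the deleted RNA of the genotype comparison. Of 5 immune markers only Cd68 was above background, and of 3 endothelial markers Pecam1 was not.

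The probes behind the results below are 60 bases long, and 5 of them are shown, for Ddit3 and Ppp1r15a, whose means were the lowest, for Atf4 as the factor the programme is named for, and for Hsp90b1 and Calr, whose probes disagreed. They are given 5′ to 3′ as deposited, all in lower case since no part is singled out.
Ddit3, chr10:126732518-126732821, + strand: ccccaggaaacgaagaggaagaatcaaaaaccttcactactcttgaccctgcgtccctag
Ppp1r15a (listed as Myd116), chr7:52779582-52779641, - strand: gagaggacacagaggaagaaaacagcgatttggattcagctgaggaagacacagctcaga
Atf4, chr15:80087079-80087138, + strand: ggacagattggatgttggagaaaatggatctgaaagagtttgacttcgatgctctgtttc
Hsp90b1, chr10:86161329-86161388, - strand: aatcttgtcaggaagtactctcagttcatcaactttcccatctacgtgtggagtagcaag
Calr, chr8:87368529-87368588, - strand: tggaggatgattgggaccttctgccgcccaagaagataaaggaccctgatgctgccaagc
The coordinates are those of the mouse build mm9 in the array files. The Ddit3 probe covers 304 bases of genome with its 60, and the other 4 match without a gap. Exons were not assigned, as no annotation of mm9 was used here.

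Most transcription factors of the programme read lower with Sox9, but none was called after adjustment. Of the 7, 6 were lower on both arrays and none was higher on both, where 33.7% and 33.8% of all tested genes were. The 6 were Ddit3, Nupr1, Cebpb, Atf5, Atf4 and Atf6, and Xbp1 was split between the arrays. The median log2 ratio of the 7 was -0.28. When the arrays were only centred on their medians, without the correction for dye by brightness, the median of all tested genes moved up to 0.21. The means of Nupr1, Atf5, Atf4 and Atf6 were then 0.11, 0.13, 0.04 and 0.20, above 0 but still below that median, and Ddit3 and Cebpb stayed below 0.

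Ddit3 had the lowest mean of all 32 genes. Its normalized brightness was 1883 in wild type and 2629 in deleted spheres of the genotype comparison, and 1281 in vehicle and 2808 in deleted spheres of the treatment comparison. On each array the deleted RNA was the brighter one, and the wider gap lay between vehicle and TAM spheres of the same genotype. The log2 ratios were -0.48 and -1.13, the mean was -0.81 ± 0.46 (SD, n = 2; adjusted p by limma = 0.191), and it ranked 118 from the lowest of all tested genes. Over the alternatives fitted with limma, the adjusted p lay between 0.134 and 0.552. The 2.19-fold difference in the treatment comparison made Ddit3 the 1 gene of the 32 that reached 2-fold lower on that array, where 0.377% of all tested genes did.

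Nupr1, a small chromatin protein of the stress response, had a brightness of 47200 against 72100 in the genotype comparison and 52530 against 66430 in the treatment comparison. The Sox9-expressing RNA lay below the deleted one on each array. The mean log2 ratio was -0.48 ± 0.19 (SD, n = 2; adjusted p by limma = 0.182).

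Cebpb, a bZIP factor that pairs with Ddit3 and with Atf4, read 2266 against 3246 in the genotype comparison and 2516 against 2918 in the treatment comparison. Its mean was -0.37 ± 0.22 (SD, n = 2; adjusted p by limma = 0.235), and its other probe was lower as well, at -0.88 and -0.33. Atf5, a close relative of Atf4, read 5209 against 6582 and 6451 against 7473, with a mean of -0.27 ± 0.09 (SD, n = 2; adjusted p by limma = 0.233). For both genes the Sox9-expressing RNA lay below the deleted one on each array.

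Atf4 itself differed little in the genotype comparison, 1080 against 1145, and more in the treatment comparison, 877.2 against 1175. Its log2 ratios were -0.08 and -0.42, with a mean of -0.25 ± 0.24 (SD, n = 2; adjusted p by limma = 0.353). Atf6, the sensor that is cut to become a factor, was close to 0 at -0.17 and -0.03. Xbp1, whose RNA is spliced by the sensor Ern1, read 807.8 against 965.7 and 901.2 against 744.1, lower with Sox9 on one array and higher on the other. Spliced and unspliced Xbp1 were not measured apart here.

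**Figure D1:**
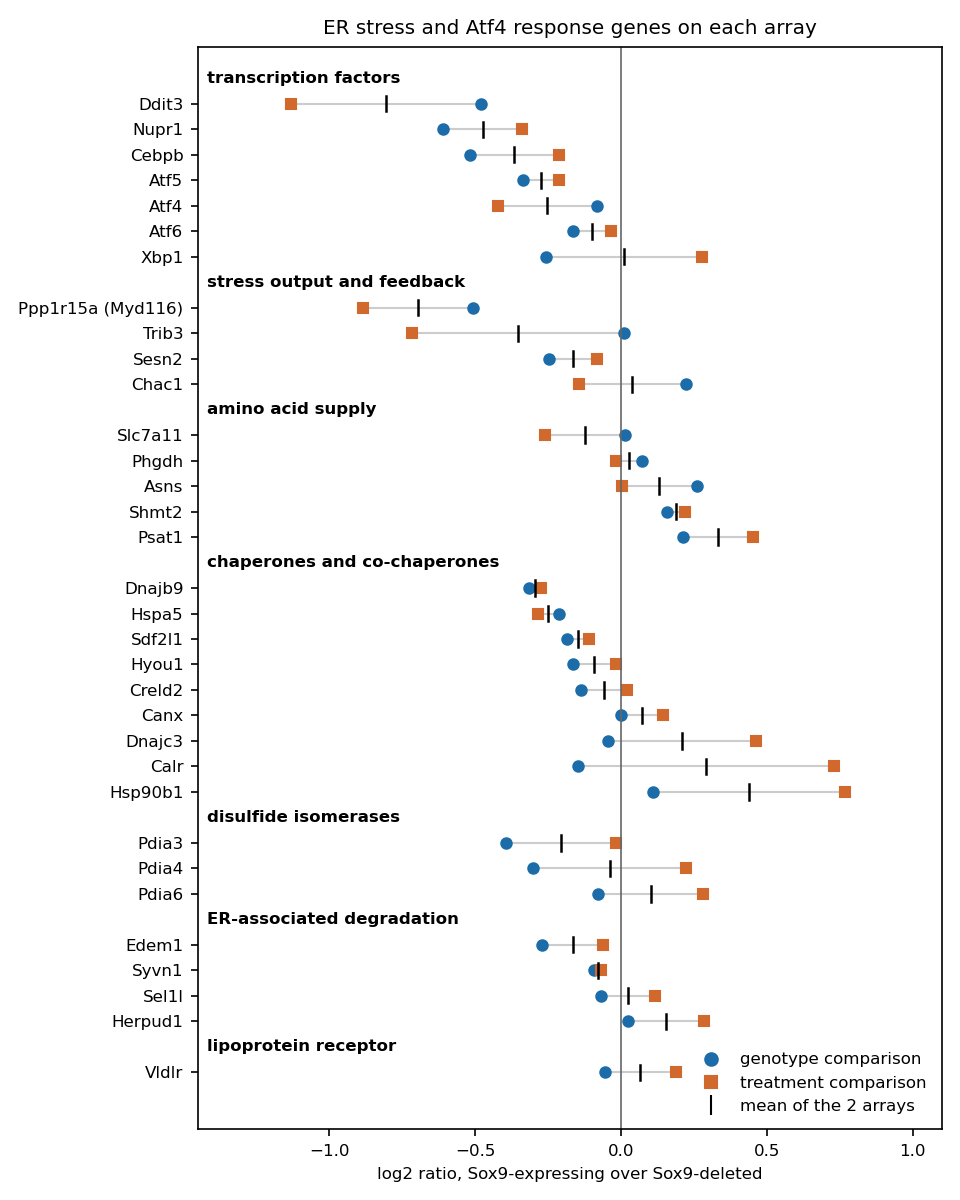
Log2 ratio of Sox9-expressing over Sox9-deleted RNA (x axis) for the 32 genes and the Ppp1r15a probe (rows, grouped by role), with blue circles for the genotype comparison, orange squares for the treatment comparison and black ticks for their mean. Ddit3 lies farthest left, with a mean of -0.81, and 6 of the 7 transcription factors have both symbols below 0, whereas Calr, Xbp1 and Pdia4 have 1 on each side.

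The genes by which the stress response acts back on the cell gave a mixed picture. The Ppp1r15a probe had a brightness of 618 against 878.1 in the genotype comparison and of 395.4 against 729.4 in the treatment comparison. Again the deleted RNA lay above the Sox9-expressing one on each array. Its log2 ratios were -0.51 and -0.88, with a mean of -0.70 ± 0.27 (SD, n = 2; adjusted p by limma = 0.155), lower than any of the 32 but Ddit3. It stayed below 0 under every alternative processing of both arrays, between -0.82 and -0.43.

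Trib3, a pseudokinase that Ddit3 and Atf4 induce and that holds their activity back, was level in the genotype comparison, 1159 against 1152, and differed in the treatment comparison, 682 against 1120. The vehicle RNA was the low one of the 4. The log2 ratios were 0.01 and -0.72, with a mean of -0.35 ± 0.51 (SD, n = 2; adjusted p by limma = 0.432). The other Trib3 probe gave -0.10 and -0.64, so the difference between the arrays was there on both probes.

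Sesn2, a sestrin that lowers mTORC1 activity, was slightly lower on both arrays, at -0.25 and -0.08. Chac1, an enzyme that breaks down glutathione, was split, at 0.22 and -0.15. Chac1 read between 648.7 and 756.1 in all 4 RNAs, and the groups overlapped.

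**Figure D2:**
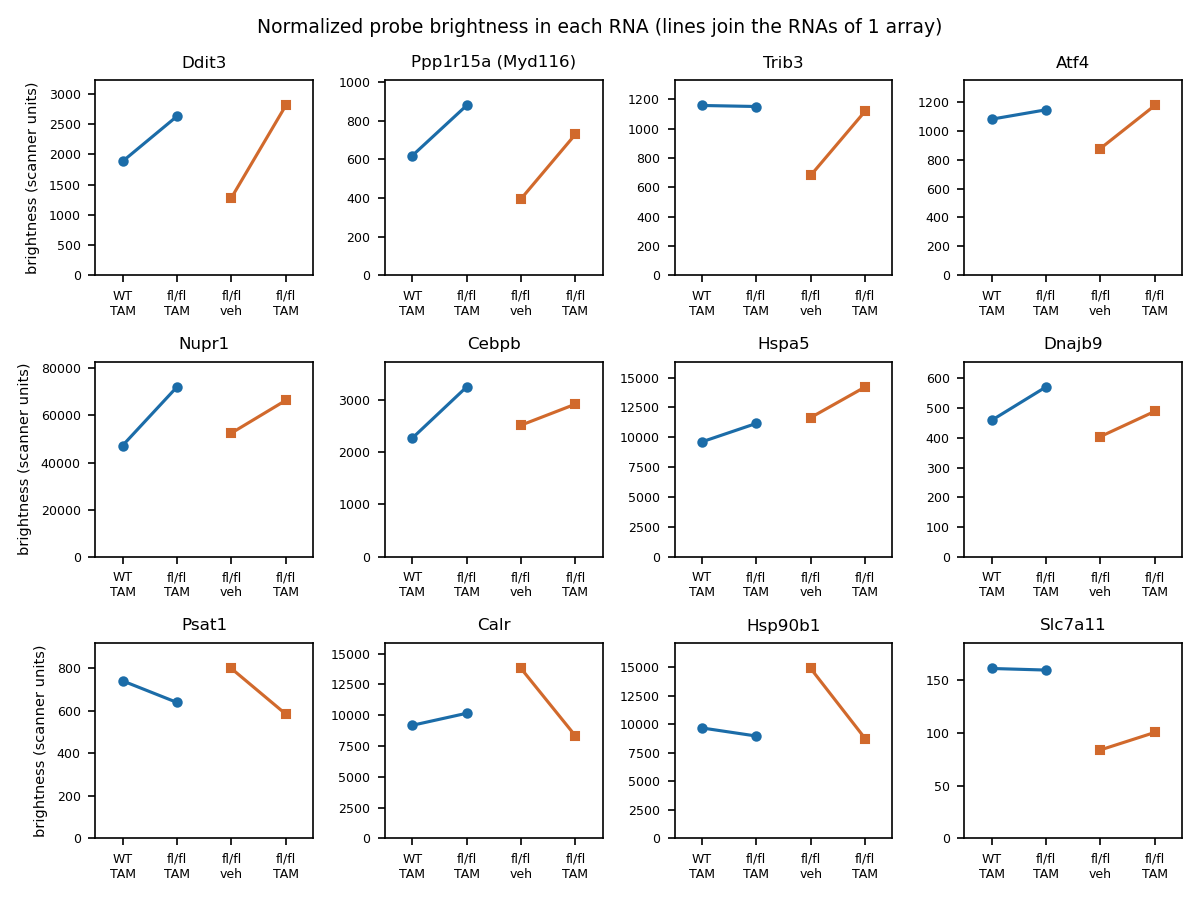
Normalized probe brightness in scanner units (y axis, from 0) in the 4 RNAs for 12 genes, with blue circles for the genotype comparison (wild type with TAM, ER-Sox9flox/flox with TAM) and orange squares for the treatment comparison (ER-Sox9flox/flox with vehicle, ER-Sox9flox/flox with TAM). Each line joins the RNAs of 1 array. Ddit3 climbs from 1281 to 2808 between vehicle and TAM, Trib3 is level on the genotype array at 1159 and 1152, and Calr and Hsp90b1 are highest in vehicle, at 13800 and 14910.

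The genes of amino acid supply leaned the other way. With Sox9, 3 of 5 read higher on each array, Asns by only 0.00 on the treatment array, and none read lower on each. Of all tested genes, 33.8% read higher and 33.7% lower on each array. Their median was 0.13. Psat1, which makes phosphoserine on the route to serine, read 741.3 against 639.6 and 799.4 against 584.7. The Sox9-expressing RNA lay above the deleted one on each array, the mean was 0.33 ± 0.17 (SD, n = 2; adjusted p by limma = 0.232), and it kept its sign under every alternative.

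Shmt2, the mitochondrial enzyme that takes serine on to glycine, read 1127 against 1011 and 1153 against 990.6, with a mean of 0.19 ± 0.04 (SD, n = 2; adjusted p by limma = 0.314). Asns, which makes asparagine and is a standard readout of Atf4, was higher in the genotype comparison, 6584 against 5500, and level in the treatment comparison, 6453 against 6439. The deleted RNA of the genotype comparison was the low one of the 4.

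Phgdh, the first enzyme of serine synthesis, was near 0 on its brightest probe, at 0.07 and -0.02. A dimmer Phgdh probe gave 1.16 in the genotype comparison, and the gap of 1.08 between its 2 brightest probes was wider than in 99.6% of the 5536 genes with at least 2 tested probes. Slc7a11, the cystine carrier, gave little signal, with a brightness from 83.74 to 160.9, and its values were 0.01 and -0.26.

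Chaperones of the ER did not move as 1 group. Of 9, 4 were lower on both arrays and 1 was higher on both, where 33.7% and 33.8% of all tested genes were, and 4 were split. Their median was -0.06. Hspa5 (BiP), the main ER chaperone and the usual marker of ER stress, read 9618 against 11160 and 11650 against 14210. Each array had it lower with Sox9, but the vehicle RNA of one array was brighter than the deleted RNA of the other, so the RNAs overlapped across arrays. The mean was -0.25 ± 0.05 (SD, n = 2; adjusted p by limma = 0.240), and 0.205 under centring by the median alone, where the median of all tested genes was 0.209.

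Dnajb9 (ERdj4), a co-chaperone of Hspa5, read 458.7 against 571.1 and 404.3 against 489.2, with a mean of -0.30 ± 0.03 (SD, n = 2; adjusted p by limma = 0.201). All 3 of its probes were lower on both arrays. Sdf2l1, another partner of Hspa5, was at -0.18 and -0.11. Hyou1, a large chaperone of the same family, was at -0.17 and -0.02. Under centring by the median alone the means of Sdf2l1 and Hyou1 were 0.15 and 0.20, above 0 but below the median of all tested genes, and that of Dnajb9 was -0.04.

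Hsp90b1 (GRP94), the ER form of Hsp90, was the highest of the 32. It read 9690 against 8980 in the genotype comparison and 14910 against 8760 in the treatment comparison. The vehicle RNA stood well above the other 3, and the mean was 0.44 ± 0.46 (SD, n = 2; adjusted p by limma = 0.335). Its second probe gave -0.25 and 0.15.

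Calr, a chaperone that binds sugar chains and calcium, also read highest in vehicle on its brightest probe, but was split between the arrays. It read 9181 against 10160 in the genotype comparison and 13800 against 8318 in the treatment comparison. Its log2 ratios were -0.15 and 0.73, with a mean of 0.29 ± 0.62 (SD, n = 2; adjusted p by limma = 0.566). The second Calr probe read -0.27 and -0.40. The gap of 1.13 between the Calr probes in the treatment comparison was wider than in 99.8% of genes with at least 2 tested probes. Dnajc3 (p58IPK), an inhibitor of the eIF2 kinase in the ER, read 6100 against 6297 and 8172 against 5928, and its 2 brightest probes also parted in the treatment comparison, by 0.50. Canx, the membrane-bound relative of Calr, was at 0.00 and 0.14, and Creld2, a secreted ER stress protein, at -0.14 and 0.02.

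The 3 disulfide isomerases, which form and exchange bonds between cysteines, were all lower with Sox9 in the genotype comparison on their brightest probes. Pdia3 (ERp57) gave -0.39 and -0.02, Pdia4 -0.30 and 0.22, and Pdia6 -0.08 and 0.28. A dim Pdia6 probe read 0.17 and 0.07. The medians of the 3 genes were -0.30 in the genotype and 0.22 in the treatment comparison, beside -0.01 and 0.01 for all tested genes. The medians of the fibroblast markers had the same signs, -0.80 and 0.85, and so did Xbp1. The part of the fibroblast markers in these values was not tested.

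Genes of ER-associated degradation, which carry misfolded proteins out to the proteasome, lay between -0.27 and 0.28 on either array. Herpud1 was slightly higher on both arrays, at 0.02 and 0.28. Edem1, a lectin that picks out misfolded glycoproteins, was at -0.27 and -0.06, and Sel1l, the scaffold of the Syvn1 ligase, at -0.07 and 0.12. Syvn1 gave -0.09 and -0.07 on its brightest probe and 0.19 and 0.21 on its other. Vldlr, a lipoprotein receptor that the Atf4 branch induces in other tissues, was at -0.06 and 0.19.

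**Figure D3:**
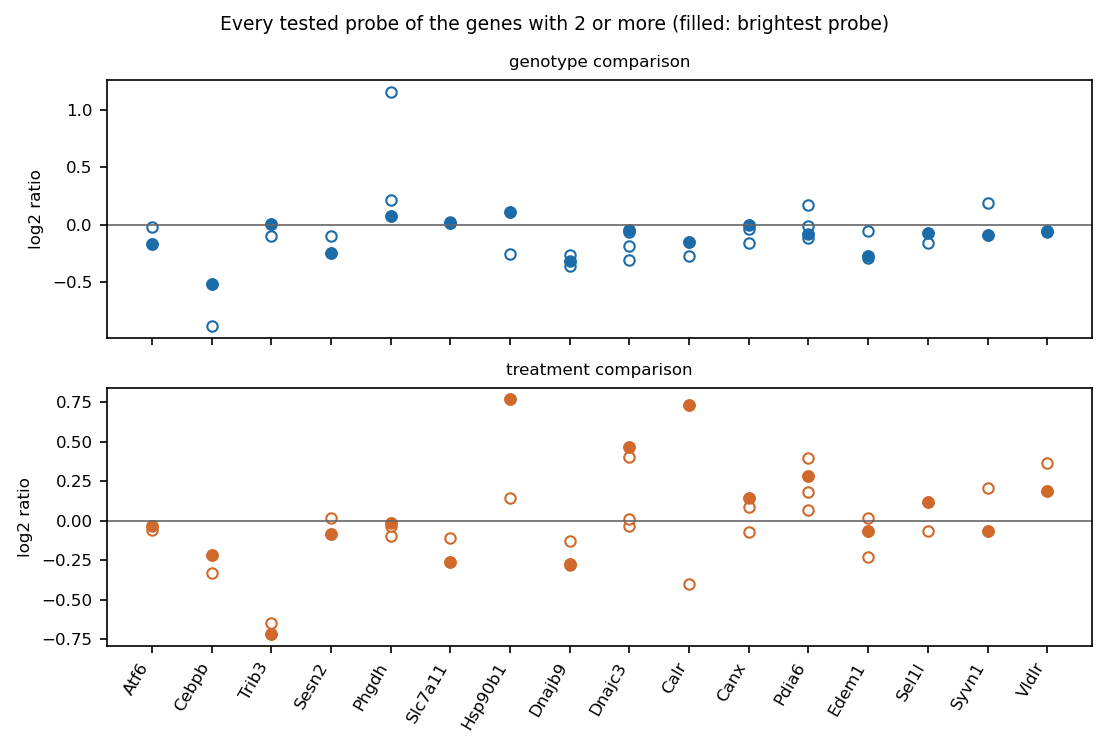
Log2 ratio of every tested probe (circles) for the 16 genes with 2 or more, in the genotype comparison (upper panel) and the treatment comparison (lower panel), the brightest probe of each gene filled. The probes of Calr in the treatment comparison and of Phgdh in the genotype comparison lie 1.13 and 1.08 apart, and all 3 probes of Dnajb9 lie below 0 in both.

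Of the 16 genes with 2 or more tested probes, the mean of the 2 brightest differed in sign in 5, namely Hsp90b1, Dnajc3, Calr, Sel1l and Syvn1. Over all genes with at least 2 tested probes, the median gap between the 2 brightest was 0.11 in the genotype and 0.13 in the treatment comparison. The sign of the mean of these 5 genes thus depends on the probe, whereas that of Trib3, Cebpb and Dnajb9 does not.

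Over the 32 genes, limma called none at an adjusted p under 0.05, and it called 2 of the 15122 tested genes, 0.0132%. At an unadjusted p under 0.05, 6 were lower with Sox9 (Ddit3, Nupr1, Cebpb, Dnajb9, Atf5 and Hspa5), 18.8% of the 32 beside 9.07% of all tested genes. One, Psat1, was higher, 3.12% beside 10.4%. A test of each gene without limma's shared variance had 1 gene lower (3.12%) and 0 higher at that unadjusted threshold. Of all tested genes it had 4.18% lower and 4.66% higher, and it called 0 after adjustment. On both arrays, 14 were lower, 43.8% beside 33.7%, and 5 were higher, 15.6% beside 33.8%. The other 13 were split between the arrays. None reached 2-fold in 1 direction on both arrays, where 0.536% of all tested genes did.

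The median of the 32 genes was -0.07, beside 0.00 for all tested genes, and was -0.12 in the genotype and -0.02 in the treatment comparison. The median SD of a gene between the arrays was 0.18 for these genes and 0.10 for all tested genes. Pearson's r between the arrays was 0.41 over the 32 genes and 0.44 over all tested genes, across genes that are not independent replicates. With centring by the median alone, the median of the 32 minus that of all tested genes was 0.05 in place of -0.07.

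**Figure D4:**
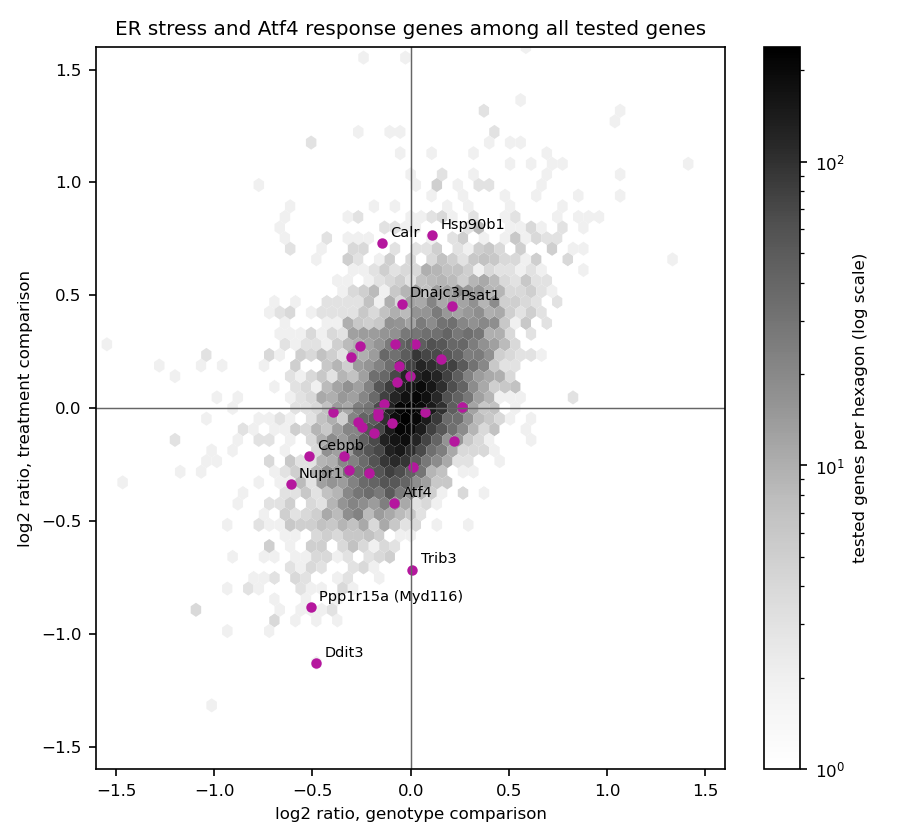
Log2 ratio in the genotype comparison (x axis) against that in the treatment comparison (y axis), with all tested genes as grey hexagons (shade: genes per hexagon, log scale; genes beyond the axes not drawn) and the 32 genes and the Ppp1r15a probe as purple points. Ddit3, at -0.48 and -1.13, and the Ppp1r15a probe lie at the edge of the cloud at lower left, while Calr and Hsp90b1 lie at its upper edge.

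Promoters were searched for the short sequences that the factors of this programme are known to bind. RefSeq promoters of build GRCm38.p6, 250 bases before to 50 after the start, were at hand for 31 of the 33 genes, and both strands were read. The ER stress element, bound by Atf6 and Xbp1, is CCAAT, any 9 bases and CCACG. It stood in the promoters of 8 of the 31 genes (25.8%) and of 37 of 27025 genes (0.137%). The stretches are shown because the folding genes share this element, with the element in capitals, as CCAAT first or, where it runs on the opposite strand, as CGTGG first.
Hspa5, chr2:34772005-34772063, + strand: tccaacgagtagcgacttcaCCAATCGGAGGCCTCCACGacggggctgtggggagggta
Calr, chr8:84847055-84847113, - strand: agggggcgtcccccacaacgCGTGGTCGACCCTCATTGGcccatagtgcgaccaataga
Hsp90b1 (far), chr10:86705618-86705676, - strand: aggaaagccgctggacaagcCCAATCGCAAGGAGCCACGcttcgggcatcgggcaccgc
Hsp90b1 (near), chr10:86705513-86705571, - strand: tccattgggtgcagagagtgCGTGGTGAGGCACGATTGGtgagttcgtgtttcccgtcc
Canx, chr11:50325780-50325838, - strand: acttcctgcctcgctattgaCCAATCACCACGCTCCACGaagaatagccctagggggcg
Pdia6, chr12:17266471-17266529, + strand: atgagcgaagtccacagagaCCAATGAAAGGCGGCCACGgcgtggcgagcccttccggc
Dnajc3, chr14:118937807-118937865, + strand: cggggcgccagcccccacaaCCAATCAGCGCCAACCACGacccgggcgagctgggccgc
Creld2, chr15:88819500-88819558, + strand: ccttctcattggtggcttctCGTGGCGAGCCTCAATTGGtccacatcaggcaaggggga
Syvn1, chr19:6046512-6046570, + strand: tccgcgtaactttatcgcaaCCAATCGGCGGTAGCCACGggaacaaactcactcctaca
All 8 are genes of folding or degradation. Their median log2 ratio was 0.09, with -0.09 in the genotype and 0.21 in the treatment comparison, and 5 of the 8 were split between the arrays. On their brightest probes Hspa5 and Syvn1 were lower on both arrays and Hsp90b1 was higher on both, but the other Syvn1 probe read 0.19 and 0.21 and the second Hsp90b1 probe -0.25 and 0.15. A match is a description of letters and not a bound site. The genes were listed because they belong to these programmes, so their share with an element is a description and not a test.

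The second ER stress element, ATTGG, any 1 base and CCACG, stood in Herpud1 alone of the 31 genes (3.23%) and in 12 of all genes (0.0444%).
Herpud1, chr8:94386357-94386407, + strand: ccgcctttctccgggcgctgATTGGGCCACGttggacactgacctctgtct
The element TGACGTGG was in none of the 31 promoters and in 0.714% of all. The core of the C/EBP-ATF element, TGATGNAA, through which Atf4 acts with C/EBP partners, was in 7 of the 31 genes (22.6%) and in 4.51% of all. The stretches are shown for 4 genes of the Atf4 branch, with the core in capitals, in reverse complement where it runs on the opposite strand. Slc7a11 has 2 cores, of which the capitals mark the one farther from the start, and the other stands near the end of the stretch in lower case.
Chac1, chr2:119351029-119351076, + strand: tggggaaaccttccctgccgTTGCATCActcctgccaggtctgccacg
Slc7a11, chr3:50443652-50443699, - strand: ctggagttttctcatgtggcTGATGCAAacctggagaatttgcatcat
Asns, chr6:7693210-7693252, - strand: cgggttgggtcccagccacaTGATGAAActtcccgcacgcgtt
Nupr1, chr7:126625553-126625600, - strand: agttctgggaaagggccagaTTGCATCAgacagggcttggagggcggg
The median log2 ratio of the 7 genes was 0.04. Nupr1 was lower on both arrays, Asns was higher in the genotype comparison and level in the treatment comparison, and Chac1 and Slc7a11 were split. Trib3, Herpud1 and Vldlr were the others with the core.

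Other genes of the same pathways gave the frame for these values. For each list below, the counts on both arrays stand beside 33.7% lower and 33.8% higher among all tested genes. Among 14 tested sensors and eIF2 control genes, both arrays had 7 lower and 3 higher, and the median was -0.08. Eif2s1, the eIF2 subunit that is phosphorylated, was lowest with a mean of -0.31, and Eif2ak1, a kinase of eIF2, was highest with 0.31. At an unadjusted p under 0.05, 1 was lower and 2 were higher, where 9.07% and 10.4% of all tested genes were, and none of the genes in these lists was called by limma after adjustment.

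In ER folding and translocation, both arrays had 10 of 29 tested genes lower and 7 higher, and the median was -0.02. It was -0.12 in the genotype and 0.12 in the treatment comparison, with the same signs as the disulfide isomerases and as the fibroblast markers, whose part was not tested. Armet (Manf), a secreted ER stress protein, was lowest at -0.27, and Txndc5, another disulfide isomerase, was highest at 0.28. In ER-associated degradation, both arrays had 11 of 17 lower and 2 higher. The median was -0.08, and means ran from Herpud2 at -0.26 to Derl3 at 0.29.

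Atf4 targets of amino acid supply, 31 tested, had 15 genes higher and 6 lower on both arrays, and their median was 0.06. At an unadjusted p under 0.05, 5 were higher and 2 lower, where 10.4% and 9.07% of all tested genes were. Pck2, a mitochondrial enzyme that feeds phosphoenolpyruvate to synthesis, was highest with 1892 against 1645 and 2419 against 1641, a mean of 0.38. Nars, which charges the transfer RNA of asparagine, was lowest with 951.1 against 1276 and 927.8 against 1168, a mean of -0.38.

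Stress output and cell death held the widest differences. Of 17 tested genes, both arrays had 8 lower and 6 higher, and 7 were lower and 4 higher at an unadjusted p under 0.05, where 9.07% and 10.4% of all tested genes were. Gdf15, a secreted stress hormone, read 1361 against 3341 and 1327 against 3748. It was the 1 gene of these lists to reach 2-fold on both arrays, at -1.30 and -1.50, with a mean of -1.40 ± 0.14 (SD, n = 2; adjusted p by limma = 0.0883). Over the alternatives fitted with limma, that adjusted p lay between 0.00706, under centring by the median alone, and 0.292.

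A further 2 genes were chosen after their values were seen. Atf3, a stress-induced factor downstream of Atf4, read 750.7 against 994.9 and 369.7 against 939.4, and like Ddit3 and Trib3 its vehicle RNA was the dimmest of the 4. Its log2 ratios were -0.41 and -1.34 (adjusted p by limma = 0.233). Bcl2l11 (Bim), a cell death gene that Ddit3 can induce, went the other way, with 1428 against 879 and 1431 against 879.4, a mean of 0.70 (adjusted p by limma = 0.102).

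Stress programmes of other compartments were read as well. Of 8 mitochondrial unfolded protein response genes, both arrays had 5 lower and none higher, with Hspa9, the mitochondrial Hsp70, lowest at -0.32 and Hspe1, the small mitochondrial chaperonin, highest at 0.03. Of 11 cytosolic heat shock genes, both arrays had 6 higher and 4 lower. At an unadjusted p under 0.05, 3 of them were higher and 1 lower, where 10.4% and 9.07% of all tested genes were. Of all tested genes, 33.8% were higher and 33.7% lower on both arrays. Their means ran from Hspb8 at -0.56 to Hspa1a at 0.38. Hspa1a shares most of its sequence with Hspa1b, and their probes may read both. When the arrays were centred on their medians alone, which put the median of all tested genes at 0.21, the means of Eif2s1, Armet, Herpud2 and Hspa9 were 0.02, 0.06, 0.01 and 0.12, above 0 but below that median. Those of Eif2ak1, Txndc5, Derl3, Nars, Pck2, Gdf15, Atf3, Bcl2l11, Hspb8, Hspe1 and Hspa1a kept their sign under every alternative that used both arrays.

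**Figure D5:**
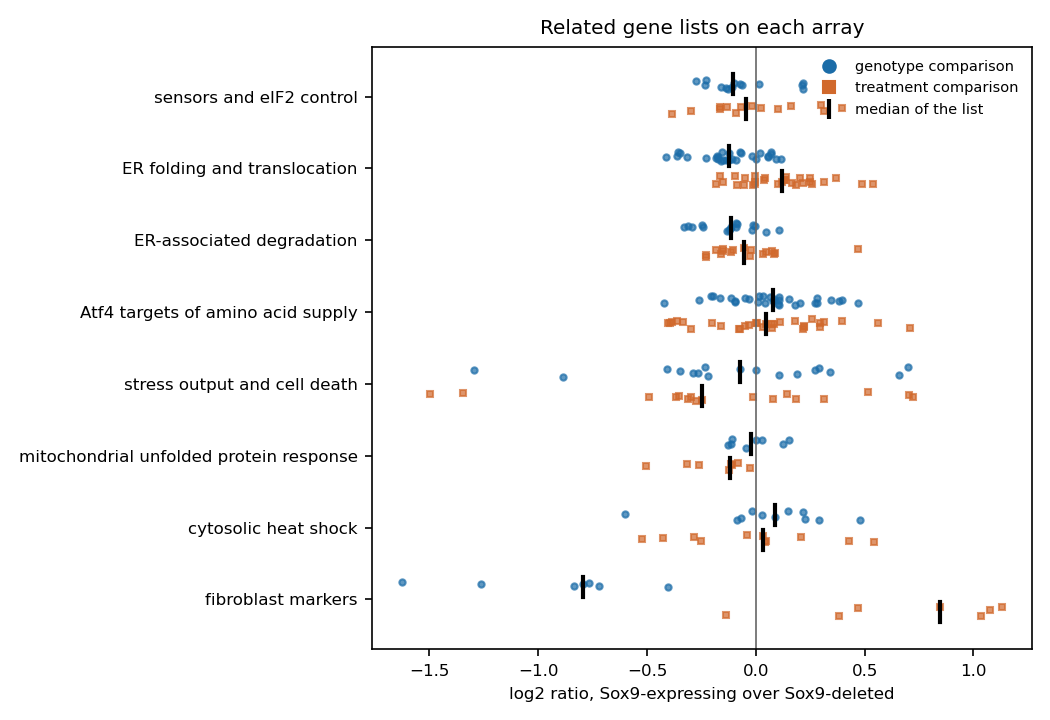
Log2 ratio of Sox9-expressing over Sox9-deleted RNA (x axis) for each gene of 7 related lists and of the fibroblast markers (rows), with blue circles for the genotype comparison, orange squares for the treatment comparison and black bars for the median on each array. Gdf15 lies farthest left in stress output on the treatment array, at -1.50, and the fibroblast medians of -0.80 and 0.85 lie on opposite sides of 0.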

How the data were processed

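Per the labels and the study's methods, total RNA from prostaspheres was amplified, labelled with Cy5 or Cy3 and hybridised to 2-colour Agilent whole mouse arrays. The authors deposited the scanner output of Agilent Feature Extraction 10.5.1.1, with raw and processed intensity, a log10 ratio and quality marks for 45018 spots, and a table of log2 values. That table followed Cy5 over Cy3 (r = 0.983 and 0.987 with the scanner's log ratios, medians -0.00989 and -0.00344). Its normalization is not given in the sources used here.

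Mean and local background signals were corrected with normexp (offset 50) and normalized by loess within arrays in limma 3.58.1 (R 4.3.3), without control spots and outlier spots (126 and 130), and spots of 1 probe were averaged. Of 41174 probes, 22731 were tested, those for which the Cy5 or the Cy3 signal was well above background, in that dye, on each array. limma's moderated test of the mean log2 ratio against 0 was adjusted by Benjamini-Hochberg over all tested probes. It has 1 residual degree of freedom and measures only the spread between these 2 arrays, which may be technical. Brightness is the normalized intensity of 1 dye, not a level comparable between genes. Their number limits the precision of arrays.

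The genes and lists were chosen with earlier results of these data known. Named are all 33 genes and, of each related list, those called or at least 2-fold on both arrays, otherwise the highest and the lowest mean. Processing was varied in 10 ways, and each array was left out in turn. One marker gene is not reported here.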

Additional observations from a re-analysis of the deposited data

How the results depend on the processing

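None of the 32 genes was called at an adjusted p under 0.05 by limma, or by the methods' t-test, under any alternative with a test. Centring on the median alone moved the median of all tested genes from 0.00322 to 0.209. Of the 32 genes, 12 were then higher and 1 lower on both arrays (50.4% and 11.2% of all tested genes), 0 were lower and 5 higher at an unadjusted p under 0.05 (0.774% and 11.7%), and their median was 0.263. The means under it were 0.205 for Hspa5, 0.0415 for Atf4, 0.134 for Atf5, 0.204 for Atf6, 0.146 for Sdf2l1, 0.197 for Pdia3, 0.267 for Pdia4, 0.135 for Edem1, 0.312 for Syvn1, 0.204 for Hyou1, 0.330 for Creld2, 0.182 for Sesn2, 0.112 for Nupr1, 0.0228 for Eif2s1, 0.0633 for Armet, 0.0125 for Herpud2 and 0.117 for Hspa9. Those of Gdf15 (-1.07) and Bcl2l11 (0.998) passed the threshold, as did Gdf15 with the authors' values (-1.47). Centring called 424 genes in all and the authors' values 56.

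The mean of Xbp1 was -0.0211 without background subtraction, -0.00870 with an offset of 10, -0.0741 with arrays scaled to 1 spread, -0.0312 with the scanner software's values and -0.00331 with the authors' values. That of Sel1l was -0.0285 without background subtraction, -0.00378 with scaled arrays, -0.0394 with the scanner software's values, -0.0251 with the authors' values and -0.0429 over all its probes. Averaging the probes of a gene gave -0.0218 for Calr, -0.00653 for Canx and 0.0597 for Syvn1. At an unadjusted p under 0.05, the scanner software's values left 3 of the 32 lower and 0 higher. Of all tested genes they had 9.1% lower and 8.1% higher. No filter on dim probes gave 2 higher, beside 7.68% of all tested genes. The methods' t-test gave 1 lower and 0 higher, beside 4.18% and 4.66%. Leaving out an array gave 9 to 14 genes higher, 18 to 23 lower and 0 to 1 at 2-fold. The medians of the 32 genes were then -0.115 to -0.0173. The gene at 2-fold was Ddit3, without the genotype array, where 0.377% of all tested genes were 2-fold lower. On a single array a gene can only be higher or lower, so these counts do not compare with those on both arrays. The medians of all tested genes were -0.00898 (genotype) and 0.0117 (treatment). In all, 15 of the 32 kept their direction under all 9 alternatives, 5 lower (Ddit3, Trib3, Dnajb9, Slc7a11, Cebpb) and 10 higher, a split that the upward shift of all genes under centring favours. The changed filters on dim probes alter only which genes are tested, so they could not change a direction. Leaving out an array was not among the 9. Of the 15, Trib3, Slc7a11, Chac1, Dnajc3, Pdia6, Phgdh and Vldlr differed in sign between the single arrays. The causes were not tested. With 1 array for each comparison, no difference between the comparisons could be tested.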
